A study of Homo sapiens with 10 samples.

Results

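Kept Smad3 sites without TTF-1 are the Smad3 peaks of TTF-1-positive lung adenocarcinoma cells that were called again after TTF-1 depletion and that had no TTF-1 peak under them at 0 h. They were chosen from the 8941 Smad3 peaks of H441 cells given a control siRNA (siControl). A member had to overlap, by at least 1 bp, a Smad3 peak of H441 cells given an siRNA against TTF-1 (siTTF-1), and to overlap no TTF-1 0 h peak. Peaks that overlapped Smad4 peaks of siTTF-1 cells and also Smad3 peaks of A549 cells were left out. The rule gave 894 sites, 10.0% of the siControl peaks (exact binomial 95% interval 9.38 to 10.6). All values used by the rule are descriptions of how the sites were chosen.

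Binding was mapped by chromatin immunoprecipitation with sequencing (ChIP-seq), which recovers the DNA bound by a factor. The lists used here are Smad3 in siTTF-1 H441 cells (14145 peaks), Smad4 in siTTF-1 H441 cells (1605 peaks), TTF-1 in H441 cells at 1.5 h (21291 peaks) and 0 h (31083 peaks), Smad3 in A549 cells (2535 peaks), and Smad3 in siControl H441 cells. H441 is labelled as expressing TTF-1, siTTF-1 H441 as depleted of it by siRNA, and A549 as TTF-1-negative; both are lung adenocarcinoma lines. The labels give 1 ng/ml TGF-β3 for 1.5 h for every library, also for the TTF-1 libraries titled 0 h and 1.5 h, which name no siRNA. Each condition has 1 library. No difference between conditions can be set against replicate spread, and depth and siRNA cannot be told apart. The TTF-1 lists come from cells with no siRNA named, so TTF-1 left on the genome after depletion is not analysed here. Intervals below are over peaks, which are not replicates, and cover counting error only. Positions are on hg18, counted from 1. Genes near the sites and their sequences are not analysed here, because the reference at hand is on another build.

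Smad3 is activated by the TGF-β receptor, enters the nucleus with Smad4 and binds short, common DNA elements. Its place on the genome therefore depends strongly on other DNA-binding factors of the cell. TTF-1, also named NKX2-1, is a homeodomain factor of lung and thyroid epithelium and is known to bind many of the enhancers of lung epithelial cells.

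The members were a minority of the Smad3 sites and stood later in the list than the kept sites with TTF-1. Of the siControl Smad3 peaks, 80.8% were called again after siTTF-1 and 12.3% had no TTF-1 0 h peak. Among the 1102 siControl peaks without TTF-1 0 h, 971 (88.1%, 86.1 to 90.0) were called again. Among the 7839 with TTF-1 0 h, 6252 (79.8%, 78.8 to 80.6) were. The members are the 971 less 77 sites with both a Smad4 and an A549 peak. The peak number in the deposited lists runs from 1 to the number of peaks, and the sources used here do not say what it ranks. Members had a median siControl peak number of 6002 (25th and 75th percentile 4345 and 7548), against 3682.5 for the 5980 kept sites with TTF-1 0 h that do not have both a Smad4 and an A549 peak. The sites not called again (lost) also stood late, with medians of 6330 with TTF-1 0 h and 7501 without it. The siControl list was divided into 5 equal groups by peak number. Members made up 2.40% of the first group, 6.54% of the second, 10.9% of the third, 14.5% of the fourth and 15.7% of the last. The earliest member was number 389.

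Members were narrower in siControl cells than the kept sites with TTF-1, but not than the lost sites. The members' median width was 499 bp, with a range of 199 to 3349 bp. The kept sites with TTF-1 had 649 bp. The median was 499 bp for the 1587 lost sites with TTF-1 and 449 bp for the 131 lost sites without TTF-1. At the edges of the rule, 12 members lay within 200 bp of a TTF-1 0 h peak, the nearest with its edge 2 bp away. On the other side of that limit, 2 kept sites overlapped a TTF-1 peak by at most 100 bp, and the smallest overlap was 49 bp. No member met its siTTF-1 peak by less than 199 bp, and 17 lost sites without TTF-1 lay within 500 bp of a siTTF-1 Smad3 peak. Seen from siTTF-1 cells, the counterpart of 876 members stood in the authors' deposited list of Smad3 peaks without TTF-1. The counterpart of the other 18 reached a TTF-1 0 h peak and stood in the authors' deposited list with TTF-1.

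After siTTF-1 most members became wider peaks. The siTTF-1 peak was wider than the siControl peak at 669 of 894 members (74.8%, 71.9 to 77.6), of the same width at 101 and narrower at 124 (13.9%, 11.7 to 16.3). Over all kept siControl peaks, 53.3% were wider and 31.3% narrower. The median width of the members was 649 bp in siTTF-1 cells and 499 bp in siControl cells, and the median ratio was 1.20 (1.19 to 1.25). With each peak counted once, the members covered 668 kb in siTTF-1 cells and 516 kb in siControl cells. Kept sites with TTF-1 had a median width of 649 bp in both lists and covered 4398 kb in siTTF-1 cells and 4250 kb in siControl cells. Of these, 48.9% (47.6 to 50.2) were wider after siTTF-1, and the difference, members minus these sites, was 25.9 percentage points (Newcombe 95% interval 22.7 to 28.9). Both sets had to overlap a siTTF-1 peak. With centres within 200 bp in place of overlap for every list, TTF-1 0 h included, the difference was 11.5 points. That setting gave another set of 1399 members, which may overlap a TTF-1 0 h peak. At 26 of the 894 members the siTTF-1 peak also met another siControl peak, and its whole width was then counted for each. Of the 349 kept sites left out of both sets for having both Smad4 and A549, of which 77 had no TTF-1 0 h peak, 73.1% (68.1 to 77.7) were wider after siTTF-1. The difference, members minus these, was 1.77 points (-3.52 to 7.37). A width of at least 1.5 times the siControl width was reached by 28.1% of the members and 11.2% of the kept sites with TTF-1, against 13.7% of all kept peaks and 18.6% of the sites with both Smad4 and A549. The middle 50% of the members had ratios between 1.00 and 1.56, and the highest ratio was 8.02.

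**Figure D1:**
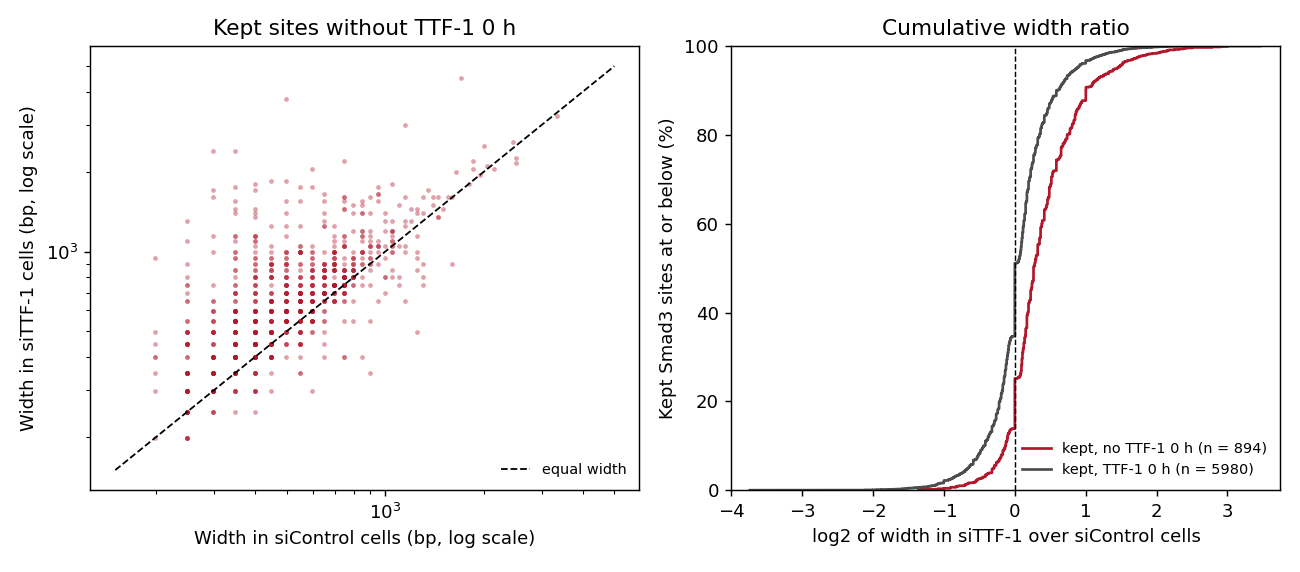
Left, width of each of the 894 kept sites without TTF-1 0 h in siControl (x, bp) and siTTF-1 cells (y, bp), both on log axes, with the line of equal width; most points lie above it. Right, cumulative share of sites (y, %) by log2 width ratio siTTF-1 over siControl (x) for the members (red) and the kept sites with TTF-1 0 h (grey); the red curve lies to the right, with 74.8% of members and 48.9% of the other sites above 0.

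The wider peaks were found along the whole list. In the 5 groups by siControl peak number, from first to last, 69.8%, 75.2%, 70.3%, 74.9% and 78.6% of the members were wider after siTTF-1. The kept sites with TTF-1 gave 40.8%, 47.0%, 50.2%, 53.9% and 58.3%. The difference ranged from 20.0 to 29.0 points, and its interval lay above 0 in all 5 groups. In 5 groups by siControl width the difference ranged from 16.0 points in the narrowest to 26.0 points in the fourth, again with every interval above 0. In the narrowest group 81.9% of the members and 65.9% of the kept sites with TTF-1 were wider, and in the widest group 56.1% of the members and 35.3% of the kept sites with TTF-1.

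Members also stood earlier in the siTTF-1 list than kept sites with TTF-1 of the same siControl rank. Over all groups, their median siTTF-1 peak number was 4104.5 (3880 to 4460), against 4458 (4337 to 4599) for the kept sites with TTF-1. These 2 intervals overlap. In siControl cells the members stood later. In the 5 siControl groups the members had median siTTF-1 numbers of 927, 2092, 3168, 4908 and 6199.5. The kept sites with TTF-1 had 1436, 3570, 5511, 6744.5 and 7841. The lists differ in length, so these numbers compare the 2 kinds of site within the siTTF-1 list and give no change of a site between lists.

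**Figure D2:**
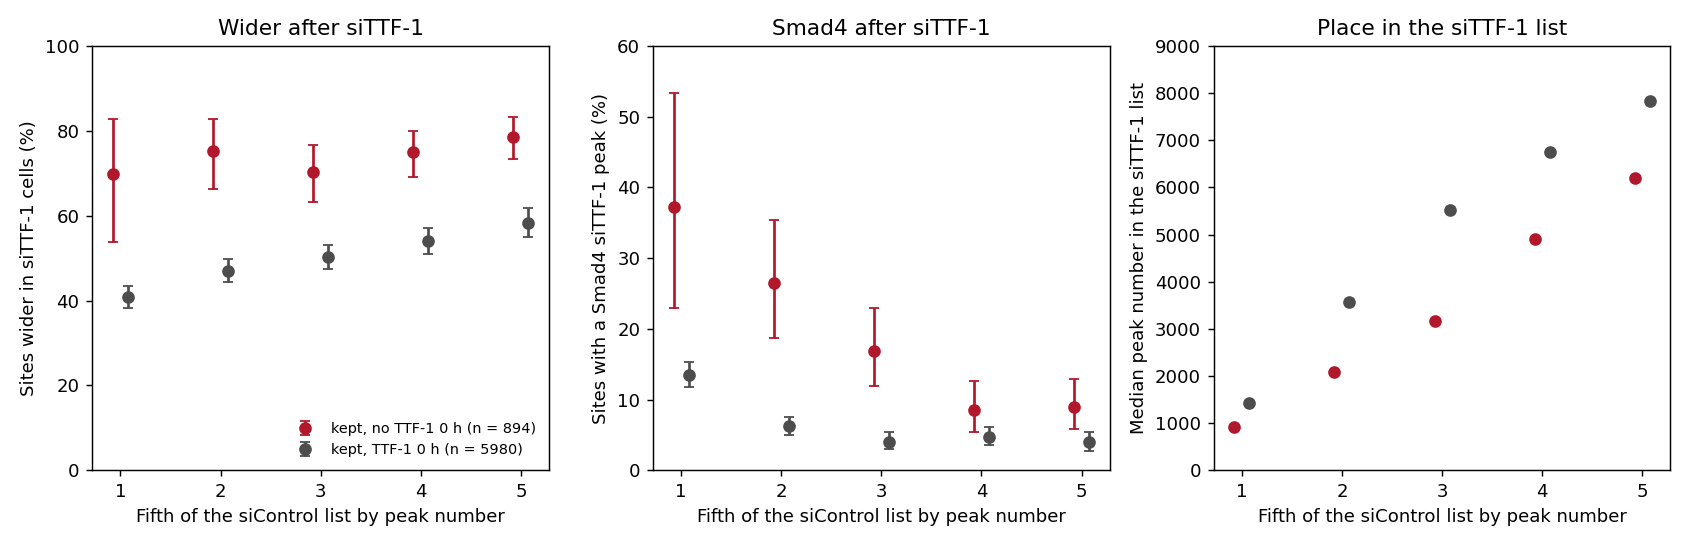
Kept sites without (red) and with (grey) TTF-1 0 h in 5 equal groups of the siControl list by peak number (x). Left, share wider after siTTF-1 (%); middle, share with a Smad4 siTTF-1 peak (%), both with exact 95% intervals; right, median peak number in the siTTF-1 list, where a low number is early. In every group the members are more often wider (69.8% to 78.6%), more often carry Smad4 and stand earlier.

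The sites at the ends of the width ratio show how such peaks look. The largest ratios came from narrow siControl peaks under a broad siTTF-1 peak. On chromosome 13, a peak of 2399 bp (92674751 to 92677149) in siTTF-1 cells stood over a siControl peak of 299 bp (92676901 to 92677199), a ratio of 8.02. On chromosome 6, 3749 bp (44133051 to 44136799) stood over 499 bp (44135501 to 44135999), a ratio of 7.51, and on chromosome 17, 2399 bp (55276801 to 55279199) over 349 bp (55276851 to 55277199), a ratio of 6.87. The nearest TTF-1 0 h peaks lay 1802, 202 and 452 bp from these 3 siControl peaks. All 3 broad siTTF-1 peaks overlapped that TTF-1 0 h peak. Without the 18 members whose siTTF-1 peak reached TTF-1, the share of wider sites was 74.3%.

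The smallest ratios lay on chromosomes 17, 1 and 22. The chromosome 17 site had 349 bp in siTTF-1 cells, against 899 bp in siControl cells (39976151 to 39977049), a ratio of 0.39. The chromosome 1 site had 499 bp in siTTF-1 cells, against 1249 bp in siControl cells (8004451 to 8005699), a ratio of 0.40, and the chromosome 22 site 399 bp, against 849 bp in siControl cells (36054101 to 36054949), a ratio of 0.47. None of these 3 had a TTF-1 1.5 h, Smad4 or A549 peak. The edges were also set against the direction of the nearest TTF-1 0 h peak. Of the 92 members within 1 kb of a TTF-1 0 h peak, 45 extended more toward it, 33 more away from it and 14 equally. Of the 322 members at 1 to 10 kb, 128 extended more toward it and 126 more away. Of the 480 members over 10 kb away, the counts were 191 and 185. The median extension was 50 bp on either side in each class, which is 1 step of the deposited positions. No interval was computed for these counts.

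Smad4 after TTF-1 depletion was found at 127 members (14.2%, 12.0 to 16.7). Other settings also change which sites are members. The share was 5.84% (4.56 to 7.36) of 1147 members with 50% of the peak covered. It was 9.44% (7.95 to 11.1) of 1399 members with centres within 200 bp. Those 1147 had a median width of 599 bp and the Smad4 peaks one of 299 bp, which limits how many could cover 50%. With overlap of 1 bp, the share was 10.1% over all siControl Smad3 peaks and 12.4% over all kept peaks. Over the kept sites with TTF-1 it was 7.02% (6.39 to 7.70). The difference to the kept sites with TTF-1 was 7.18 points (4.94 to 9.70). The rule removes sites with both Smad4 and A549 from both sets. With those sites put back, Smad4 stood at 21.0% of the 971 kept sites without TTF-1 and at 11.1% of the 6252 kept sites with TTF-1, a difference of 9.94 points (7.37 to 12.7). By siControl peak number, from first to last group, the members had Smad4 at 37.2%, 26.5%, 16.9%, 8.49% and 8.93%, and the kept sites with TTF-1 at 13.5%, 6.20%, 4.06%, 4.71% and 3.93%. All 5 intervals of the difference lay above 0. By width, 4 of 5 did, and in the widest group the difference was 5.69 points (-0.79 to 14.5). Under other settings the difference was 3.004 points with the TTF-1 1.5 h list in the rule and 3.42 with centres within 200 bp. It was 4.12 with 50% of the peak covered and 15.9 in the first 50% of the siControl list. Each of these settings also changes which sites are compared. The share was 6.79% at the 4342 gained Smad3 sites without TTF-1 0 h, and 1 of the 131 lost sites without TTF-1 had a Smad4 peak. Gained sites with both Smad4 and A549 were not left out, so the 21.0% above is the share on the same terms as the 6.79%. The place in the siTTF-1 list still differed, with a median number of 9477.5 for gained sites and 4104.5 for members. No comparison within groups of that list was computed. Smad4 was mapped in the same siTTF-1 condition that the rule used to part kept from lost sites. The Smad4 siControl list holds 1 peak, which is not a member.

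Members with Smad4 were wider more often than members without it. After siTTF-1, 110 of the 127 (86.6%, 79.4 to 92.0) were wider, against 72.9% (69.6 to 76.0) of the 767 without Smad4, a difference of 13.7 points (6.10 to 19.6). Their median width in siTTF-1 cells was 749 bp, against 649 bp without Smad4, and their median siTTF-1 peak number was 1762, against 4641 for members without Smad4. The median distance to TTF-1 0 h was 16452 bp with Smad4 and 11402 bp without. Another siControl Smad3 peak lay within 10 kb of 29.1% of those with Smad4 and 38.5% of those without. No interval was computed for these last differences.

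The first 3 members with Smad4 by siControl peak number lay on chromosomes 10, 6 and 7. On chromosome 10 (71905451 to 71905949) the peak was number 685 in siTTF-1 cells and number 518 with 499 bp in siControl cells, a width ratio of 1.10. On chromosome 6 (44097701 to 44098949) it was number 418 with 1399 bp in siTTF-1 cells and number 633 with 1249 bp in siControl cells. Both also had a TTF-1 1.5 h peak. The third, on chromosome 7 (549001 to 549849), had none and was number 141 with 1499 bp in siTTF-1 cells and number 791 with 849 bp in siControl cells.

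A549 Smad3 peaks were present at 82 members (9.17%, 7.36 to 11.3), against 11.9% of all siControl Smad3 peaks and 14.5% of all kept peaks. Kept sites with TTF-1 had one at 10.3% (9.57 to 11.1), and the difference was -1.16 points (-3.06 to 1.04), with 0 inside the interval. The intervals in the 5 groups by peak number all included 0. By width, 4 of 5 did, and in the second narrowest group the difference was 4.84 points (0.91 to 10.2). With the sites that carry both Smad4 and A549 put back, the shares were 16.4% without and 14.2% with TTF-1, a difference of 2.14 points (-0.23 to 4.74). Gained sites without TTF-1 had an A549 peak at 5.96%, a difference of 3.21 points for members minus gained sites (1.33 to 5.38). Sites with both Smad4 and A549 were left out of the members but not of the gained sites. The 16.4% above is the share on the same terms as the 5.96%, although the gained sites stood later in the siTTF-1 list. None of the 131 lost sites without TTF-1 had an A549 peak, an upper 95% limit of 2.78%. Members with an A549 peak had a median width of 824 bp in siTTF-1 cells and 599 bp in siControl cells. Of these, 80.5% were wider after siTTF-1, against 74.3% of those without, a difference of 6.23 points (-4.05 to 14.0).

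The first 3 members with an A549 peak lay on chromosomes 9, 5 and 3. That on chromosome 9 (131452701 to 131453149) also had a TTF-1 1.5 h peak and was number 213 with 949 bp in siTTF-1 cells and number 1475 with 449 bp in siControl cells, a ratio of 2.11. The chromosome 5 site (17045151 to 17046049) kept the same edges and 899 bp in both conditions. The chromosome 3 site (171557201 to 171558249) had 1799 bp in siTTF-1 cells and 1049 bp in siControl cells.

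**Figure D3:**
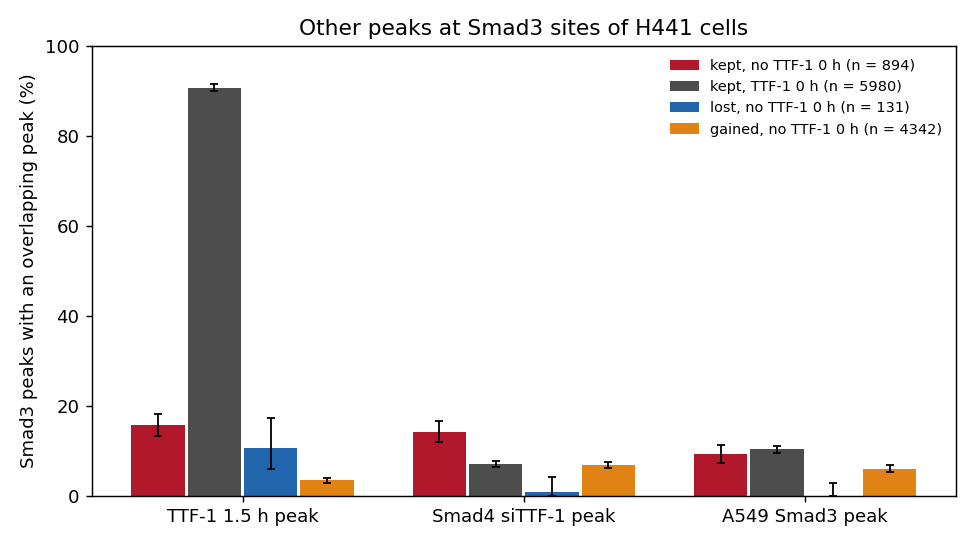
Share (y, %) of Smad3 sites with an overlapping TTF-1 1.5 h, Smad4 siTTF-1 or A549 Smad3 peak (x) for kept sites without TTF-1 0 h (red), kept sites with it (grey), lost sites without it (blue) and gained sites without it (orange), with exact 95% intervals. The members stand at 15.7%, 14.2% and 9.17%. Sites with both Smad4 and A549 were left out of the 2 kept sets but not of the gained sites.

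TTF-1 was not wholly absent from the members at the second time. A TTF-1 1.5 h peak overlapped 140 of them (15.7%, 13.3 to 18.2), against 82.2% of all siControl Smad3 peaks and 80.7% of all kept peaks. The rule bears on this share, because all but 892 of the 21291 TTF-1 1.5 h peaks overlapped a TTF-1 0 h peak. Lost sites without TTF-1 0 h had a TTF-1 1.5 h peak at 10.7% (5.97 to 17.3), and the difference of 4.97 points had an interval of -1.86 to 9.89. Gained sites without TTF-1 0 h had one at 3.41%, and that difference was 12.3 points (9.94 to 14.8). The gained sites stood later in the siTTF-1 list, at a median number of 9477.5, against 4104.5 for the members. Their difference was not computed within groups of that list. Among members, the share was 41.9% for the 43 of the first group by siControl peak number, then 25.6%, 16.4%, 12.7% and 9.64%. It also fell for the kept sites with TTF-1 0 h, from 97.4% to 94.7%, 90.9%, 85.5% and 78.3%. The members' median siControl width was 749 bp in the first group and 399 bp in the last. The TTF-1 1.5 h peaks at members stood late in their own list, at a median number of 17341 of 21291. Of these 141 peaks, 12 were in its first 50%. Their median width was 399 bp, against 599 bp for the whole 1.5 h list. Of those 892, 176 overlapped a siControl Smad3 peak and 140 (15.7%, 13.4 to 18.3) overlapped a member. The rule bears on these counts too, because members were 81.1% of the 1102 siControl Smad3 peaks without TTF-1 0 h.

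When the members were divided by TTF-1 1.5 h, the intervals of all 3 differences computed included 0. Those with it were wider after siTTF-1 in 98 of 140 cases (70.0%), against 75.7% of the 754 members with no TTF-1 peak at either time, a difference of -5.73 points (-14.3 to 1.94). Smad4 stood at 17.9% and 13.5% of the 2 kinds, with an interval of the difference of -1.73 to 11.9 points, and A549 peaks at 7.14% and 9.55% (-6.37 to 3.42 points). In all, 580 members (64.9%, 61.6 to 68.0) had neither a TTF-1 1.5 h, a Smad4 nor an A549 peak. A further 105 had TTF-1 1.5 h alone, 102 Smad4 alone and 72 A549 alone, while 25 had TTF-1 1.5 h with Smad4 and 10 TTF-1 1.5 h with A549. The rule bears on the 64.9% too. Few TTF-1 1.5 h peaks lie away from TTF-1 0 h peaks, and sites with both Smad4 and A549 were left out. The same share over all kept peaks is not given here. The 580 had a median siControl peak number of 6454, against 6002 for all members, and 72.8% of them were wider after siTTF-1.

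The earliest members by siControl peak number carried TTF-1 1.5 h in 4 of 5 cases. Number 389 lay on chromosome 1 (47821151 to 47821849), with 749 bp in siTTF-1 cells and 699 bp in siControl cells, at 12502 bp from the nearest TTF-1 0 h peak. Number 524 lay on chromosome 4 (10201551 to 10202149), with 749 bp in siTTF-1 cells and 599 bp in siControl cells. Numbers 518 and 633 are the sites with Smad4 on chromosomes 10 and 6 named above. Number 664 on chromosome 9 (113948001 to 113948499) was the first member without TTF-1 at either time, had neither Smad4 nor A549, and had 749 bp in siTTF-1 cells and 499 bp in siControl cells.

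By the rule no member overlapped a TTF-1 0 h peak, and the distance to the nearest one varied widely. The distance between nearest edges had a median of 12152 bp (10252 to 13852). A TTF-1 0 h peak lay within 1 kb of 92 members (10.3%), within 10 kb of 414 (46.3%, 43.0 to 49.6) and within 50 kb of 717 (80.2%). Counting overlaps, which the rule forbids to members, 93.6% of all siControl Smad3 peaks had one within 10 kb. The shares of all siControl peaks within 1 kb and 50 kb are not given here. The share expected from the density of the TTF-1 0 h list was not computed. Of the lost sites without TTF-1, 26.0% had a TTF-1 0 h peak within 1 kb, 62.6% within 10 kb and 90.8% within 50 kb. Members minus lost sites, the differences were -15.7 points (-24.0 to -8.58) within 1 kb and -16.3 points (-24.8 to -7.15) within 10 kb. Their median distance was 4252 bp. Of the gained sites without TTF-1, the shares were 8.18% within 1 kb, 36.5% within 10 kb and 74.1% within 50 kb. Their median distance was 18927 bp. At the far end, 68 members (7.61%) had no TTF-1 0 h peak within 100 kb.

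**Figure D4:**
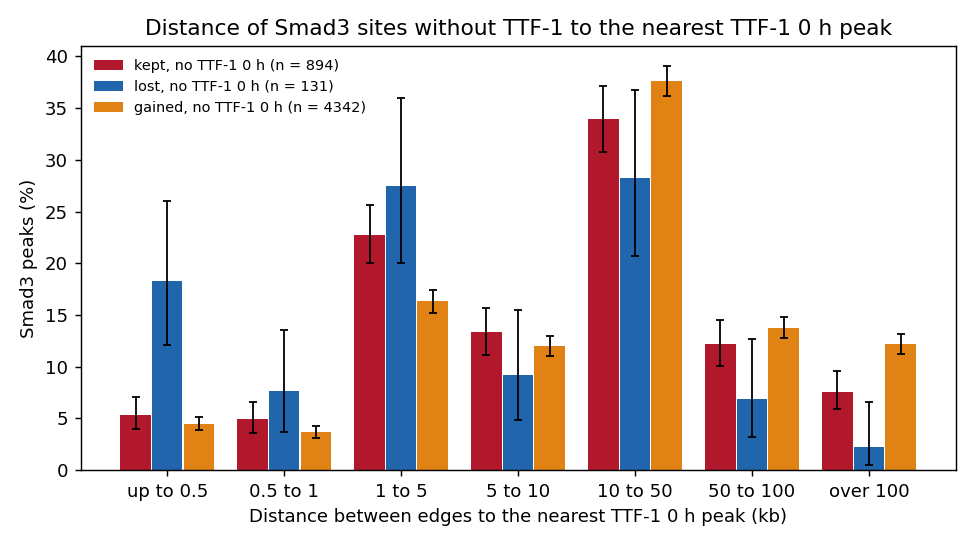
Share of sites (y, %) by distance between edges to the nearest TTF-1 0 h peak (x, kb) for kept (red), lost (blue) and gained (orange) Smad3 sites without TTF-1 0 h, with exact 95% intervals. Up to 0.5 kb hold 5.37% of the kept, 18.3% of the lost and 4.51% of the gained sites, and 10 to 50 kb is the fullest class in all 3.

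The nearest members all lay on chromosome 2. The first (27760301 to 27760599) had its edge 2 bp from a TTF-1 0 h peak, the second (128170201 to 128170749) 52 bp and the third (9444801 to 9445249) 102 bp. The first had 649 bp in siTTF-1 cells and 299 bp in siControl cells. The second had 999 bp in siTTF-1 cells, 1.82 times its siControl width, and the third 399 bp in siTTF-1 cells and 449 bp in siControl cells. The farthest member, on chromosome 10 (83350051 to 83350349), lay 1018752 bp from the nearest TTF-1 0 h peak, had the same 299 bp in both conditions, and yet had a TTF-1 1.5 h peak. The next lay on chromosome 2 (194397551 to 194397899) at 680102 bp, with TTF-1 1.5 h and Smad4. The one after it lay on chromosome 10 (26816501 to 26816899) at 666402 bp, with an A549 peak.

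Neighbouring Smad3 peaks were counted within 10 kb. Another siControl Smad3 peak lay within 10 kb of 37.1% (34.0 to 40.4) of them, against 36.7% of all siControl peaks, and the difference to the kept sites with TTF-1 was -0.10 points (-3.45 to 3.33). Lost sites without TTF-1 had such a neighbour in 50.4% of cases, and members minus lost sites the difference was -13.2 points (-22.2 to -4.20). A gained Smad3 peak lay within 10 kb of 24.3% (21.5 to 27.2) of the members, against 21.2% of all kept peaks and 20.3% of the kept sites with TTF-1, a difference of 3.96 points (1.07 to 7.04).

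The widest members stood at very different places in the lists. The widest, on chromosome 21 (35179501 to 35182849), had 3349 bp in siControl cells and lay under 2 siTTF-1 peaks that together had 3248 bp. It carried TTF-1 1.5 h and Smad4 and lay 1902 bp from a TTF-1 0 h peak. The next 2 had 2499 bp each in siControl cells. That on chromosome 1 (59052601 to 59055099), with 2149 bp in siTTF-1 cells and an A549 peak, stood at number 12375 of the siTTF-1 list and 8147 of the siControl list. That on chromosome 14 (37131301 to 37133799), with 2249 bp in siTTF-1 cells and none of the other peaks, lay 602 bp from a TTF-1 0 h peak. The sites on chromosomes 1 and 14 were narrower in siTTF-1 cells. On chromosome 21 only the summed width was smaller. There the 2 siTTF-1 peaks reached from 35179501 to 35182899, from one end of the siControl peak to beyond the other.

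By chromosome the members' share of siControl Smad3 peaks ranged from 5.83% on chromosome 21 (6 of 103) to 14.0% on chromosome 9 (52 of 371, 10.6 to 18.0). Chromosome 2 had 6.54% (41 of 627, 4.73 to 8.77). Of 23 chromosomes, only 9 and 2 had an interval that left out the overall 10.0%. Of the 1 Mb windows with a member, 483 held 1 and 136 held 2. The same counts for other siControl peaks of equal number were not computed. At most 6 members fell in a window, on chromosome 5 (33000001 to 34000000) and on chromosome 15 (72000001 to 73000000). The chromosome 5 window held 7 siControl Smad3 peaks in all, 6 of them members, beside 13 TTF-1 0 h peaks. Those members lay within 263 kb, and 5 of the 6 were wider after siTTF-1. The chromosome 15 window held 12 siControl Smad3 peaks and 15 TTF-1 0 h peaks, and again 5 of 6 members were wider. A window on chromosome 6 (27000001 to 28000000) held 5 members among 13 siControl peaks, of which 2 were wider and none had a TTF-1 1.5 h, Smad4 or A549 peak.

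**Figure D5:**
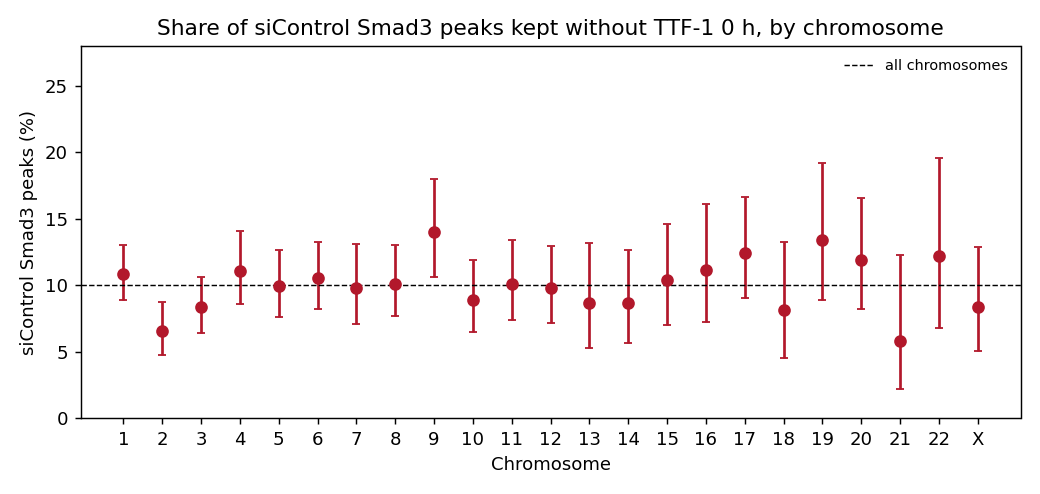
Share (y, %) of siControl Smad3 peaks of each chromosome (x) that were kept without TTF-1 0 h, with exact 95% intervals, and the share over all chromosomes (10.0%, dashed). Chromosome 9 stands highest at 14.0% and chromosome 21 lowest at 5.83%.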

How the data were processed

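Peak positions in the deposited lists move in 50-bp steps. Each peak has a number and a deposited score of 1000, which was not used. Per the labels, false discovery rate limits were 1% for the H441 lists of TTF-1 and Smad3, 10% for Smad4 and 5% for A549. The build is hg18, per the submitters' processing notes. Aligner and peak caller: not given in the sources used here. Each list comes from 1 library, and input DNA (3 libraries) was not analysed here.

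Deposited starts were raised by 1, and 1 track line was skipped. Overlap needed 1 bp. Width after siTTF-1 is the summed width of the overlapping siTTF-1 peaks, counted in full for each siControl peak they meet. Distances are differences of nearest edge positions. Shares have exact Clopper-Pearson intervals, differences Newcombe intervals and medians order-statistic intervals, all at 95%. No p-value was computed. Kept means overlapping, lost not overlapping, a siTTF-1 peak. Gained siTTF-1 peaks overlap no siControl peak. Lost and gained sites were not cleared of sites with both Smad4 and A549. Overlaps by 50%, by centre or by edge, other TTF-1 lists, shortened lists, autosomes and merged peaks were tried.

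Named sites are the 5 members of lowest number, the 3 widest, the 3 first with each other peak, the 3 of largest and smallest width ratio, the 3 nearest to and farthest from TTF-1, and the fullest windows. The members, lists and comparisons were chosen with earlier results of these data known. Gene lists and motifs were not run for want of an hg18 reference. The code was tested on simulated data. Python 3.11.15, NumPy 2.4.6, pandas 2.3.3, SciPy 1.17.1, matplotlib 3.10.9 and bedtools 2.31.1 were used.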

Additional observations from a re-analysis of the deposited data

How the results depend on the processing

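The rule and most readouts were recomputed under 14 settings, with 12 for the TTF-1 1.5 h share and 13 for TTF-1 0 h within 10 kb, since the other settings use those lists in the rule. Of the 14, 3 were chosen after seeing the data (members whose siTTF-1 peak also lacks TTF-1, no TTF-1 0 h peak within 1 kb, and siTTF-1 peaks that meet a single siControl peak). The share wider after siTTF-1 and the differences between members and kept sites with TTF-1 were also added after seeing the data. The difference in the share wider stayed above 0 in all 14 (11.5 to 28.4 points), and so did that for Smad4 (3.004 to 15.9 points). The A549 difference ran from -1.96 to 2.14 points, changed sign between settings, and its interval always included 0. Asking for centres within 200 bp gave 1399 members, TTF-1 1.5 h at 24.3%, Smad4 at 9.44%, A549 at 7.15%, a siControl width of 599 bp, a width ratio of 1.09, a siControl peak number of 5095, TTF-1 0 h within 10 kb at 67.1% and 60.1% wider. Asking for 50% of the peak covered gave Smad4 at 5.84%, A549 at 12.4%, 599 bp, a ratio of 1.18, peak numbers of 3523 in siTTF-1 and 5497 in siControl cells, and TTF-1 0 h within 10 kb at 56.5%. Edges within 500 bp gave a ratio of 1.26 and 77.9% wider. With TTF-1 1.5 h in the rule, Smad4 stood at 10.4%, the siTTF-1 peak number at 4731, TTF-1 0 h within 10 kb at 68.8% and the share wider at 71.2%. With sites that have both Smad4 and A549 kept in, Smad4 stood at 21.0% and A549 at 16.4%. With the siTTF-1 list shortened to the siControl length, the ratio was 1.25, the peak numbers 3392 in siTTF-1 and 5686 in siControl cells, and 80.7% were wider. The first 50% of the siControl list held 240 members, with TTF-1 1.5 h at 24.6%, Smad4 at 25%, A549 at 12.1%, 649 bp and peak numbers of 1991 in siTTF-1 and 3047 in siControl cells. The second 50% gave TTF-1 1.5 h at 12.4%, Smad4 at 10.2%, 449 bp and peak numbers of 5140 in siTTF-1 and 6845.5 in siControl cells. Shortened and divided lists hold fewer peaks by construction. The 77 sites put back all carry Smad4 and A549, which raises both shares by construction. With TTF-1 1.5 h in the rule, 50% of the peak covered or centres within 200 bp, members may overlap a TTF-1 0 h peak. Such an overlap counts as TTF-1 0 h within 10 kb, and all but 892 of the 21291 TTF-1 1.5 h peaks overlapped a TTF-1 0 h peak. Overlap by 50%, by centre or by edge applied to every list. It therefore also changed which sites were left out for having both Smad4 and A549. For the remaining changes the cause was not tested.

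No paired analysis was possible because each condition has 1 library. For the same reason leaving out a replicate was impossible, and nothing here measures the spread between cultures. Sequencing depth is unknown. The false discovery rate limits of the lists differ between the Smad3, Smad4 and A549 lists. Motif shares and genes near the sites were not run, for want of an hg18 reference.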
